A study of Sus scrofa with 2 samples.

Results

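The Fc receptors FCGR3A and FCGR2B and the adaptors FCER1G and TYROBP were followed across the cells of 2 single-cell libraries of pig endometrium, the inner lining of the uterus. The 4 genes were picked by their symbols in the deposited feature table, which holds 26881 genes, and each symbol stood on 1 row. FCGR3A was ENSSSCG00025047334, FCGR2B ENSSSCG00025046042, FCER1G ENSSSCG00025004765 and TYROBP ENSSSCG00025058890. The tissue came from Yorkshire sows of 3 years that had been artificially inseminated and the labels name no further treatment. The study set 1 sow at day 7 against 1 sow at day 13 of gestation, as a stage before and a stage of receptivity for the embryo. The labels number the libraries 1 and 2 without saying which came from which day, so no stage is given to either. Each library was 1 animal, so differences between libraries have no replicate check and were not tested, and all intervals cover counting error only.

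Fc receptors bind the constant part of antibodies and so let leukocytes react to antibody-coated particles and cells. FCGR3A (CD16) is an activating receptor with little signalling capacity of its own. It relies on partner chains such as the gamma chain FCER1G for its display and signal. FCER1G and TYROBP (DAP12) carry tyrosine motifs that recruit the kinase SYK, TYROBP serving receptors such as TREM2 and NK cell receptors. FCGR2B carries the opposite, inhibitory motif and recruits the phosphatase INPP5D. In the endometrium such receptors are known from macrophages and natural killer (NK) cells.

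Library 1 held 10045 barcodes and 45388759 UMIs (unique molecular identifiers, each counting 1 captured transcript), and library 2 held 15093 barcodes and 87514969 UMIs. After filters and the removal of called doublets 8930 and 12673 cells remained. Cells were clustered without the 4 genes and classes were rebuilt from marker genes, so a class does not rest on the genes described. Of the myeloid markers with a symbol, 20 of 26 in library 1 and 23 of 26 in library 2 were over 2-fold above the other cells. For T or NK cell markers these were 20 of 21 and 19 of 21. The libraries shared 48 barcodes, which held 12 of 4007 FCGR3A UMIs in library 1 and 41 of 11189 in library 2. Called doublets, which were left out, held 15.1 to 20.8% of the UMIs of each of the 4 genes in library 1 and 25.2 to 27.1% in library 2.

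All 4 genes were highest in myeloid-like cells, the class with macrophage, monocyte and dendritic cell markers. FCGR3A alone reached a comparable level in a second class, the T or NK cell-like lymphocytes. FCER1G and TYROBP had their second-highest level in those lymphocytes too, far below their own myeloid level. FCGR2B had its second level in B cells. The remaining classes held a low level of each gene.

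FCGR3A stood at 2946 CPM (UMIs of the gene per 1000000 UMIs of the class; Poisson 95% interval 2815 to 3081) in the 180 myeloid-like cells of library 1. In the 520 myeloid-like cells of library 2 it stood at 2442 CPM (2376 to 2509). T or NK cell-like cells held 1649 CPM in library 1 (476 cells, 1555 to 1748) and 1559 CPM in library 2 (833 cells, 1497 to 1624). With called doublets kept these lymphocyte levels were lower, as given with the processing alternatives. The myeloid-like and T or NK cell-like classes took 55.7% and 33.5% of the FCGR3A UMIs of library 1, and 61.9% and 28.1% of those of library 2. The order was the same in both libraries, and the intervals of the top classes did not meet. B cell-like cells of library 2 had 41.1 CPM (124 cells, 12 UMIs). Their interval of 21.3 to 71.8 CPM met that of the plasma cell-like class at 19.1 CPM. Library 1 had 7 B cell-like cells with 6 UMIs, too few for a level. Below these, the FCGR3A level in named classes ran from 5.69 CPM in epithelial-like cells of library 1 to 19.1 CPM in plasma cell-like cells of library 2, and intervals of neighbouring classes met throughout. The unnamed cells of library 1 stood lower still, at 3.44 CPM (7 UMIs).

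FCGR2B had 398 CPM in myeloid-like cells of library 1 (351 to 450) and 560 CPM in library 2 (529 to 593). This class held 89.2% and 86.3% of its UMIs. T or NK cell-like cells had 0 UMIs in library 1, which allows a share of up to 0.630% of cells with a UMI, and 4 UMIs in library 2. So FCGR3A and FCGR2B, which are adjacent genes in the RefSeq annotation of Sscrofa11.1, differed in the lymphocytes. B cell-like cells of library 2 held 44.6 CPM of FCGR2B (13 UMIs, 23.7 to 76.2), with a UMI in 8.87% of cells. In other mammals FCGR2B is the main Fc receptor of B cells. Blood endothelial-like cells, where FCGR2B has been described in other organs, stood at 0.577 CPM (6 UMIs, library 1) and 2.45 CPM (34 UMIs, library 2). That was 0.145% and 0.438% of the myeloid level, within the range of muscle, stromal and epithelial cells. Lymphatic endothelial-like cells had 0 and 1 UMIs.

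FCER1G, the gamma chain, stood at 1324 CPM in myeloid-like cells of library 1 (1236 to 1416) and 733 CPM in library 2 (697 to 770). In T or NK cell-like cells it stood at 153 CPM (126 to 186) and 248 CPM (223 to 274). TYROBP stood at 2011 CPM (1903 to 2124) and 1098 CPM (1054 to 1144) in myeloid-like cells. Its lymphocyte levels were 91.2 CPM (70.1 to 116.7) and 96.1 CPM (81.1 to 113.1). Relative to each gene's own myeloid level, lymphocytes thus had 56.0% and 63.9% for FCGR3A, 11.6% and 33.8% for FCER1G, and 4.54% and 8.75% for TYROBP. B cell-like cells of library 2 had 0 UMIs of both adaptors, which allows up to 2.42% of cells with a UMI. TYROBP came next in stromal fibroblast-like cells, at 11.6 and 10.5 CPM. In library 2 the interval of that class (8.58 to 12.7 CPM) lay above that of the next, while in library 1 it met that of dividing cells at 10.7 CPM (5.11 to 19.6).

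**Figure D1:**
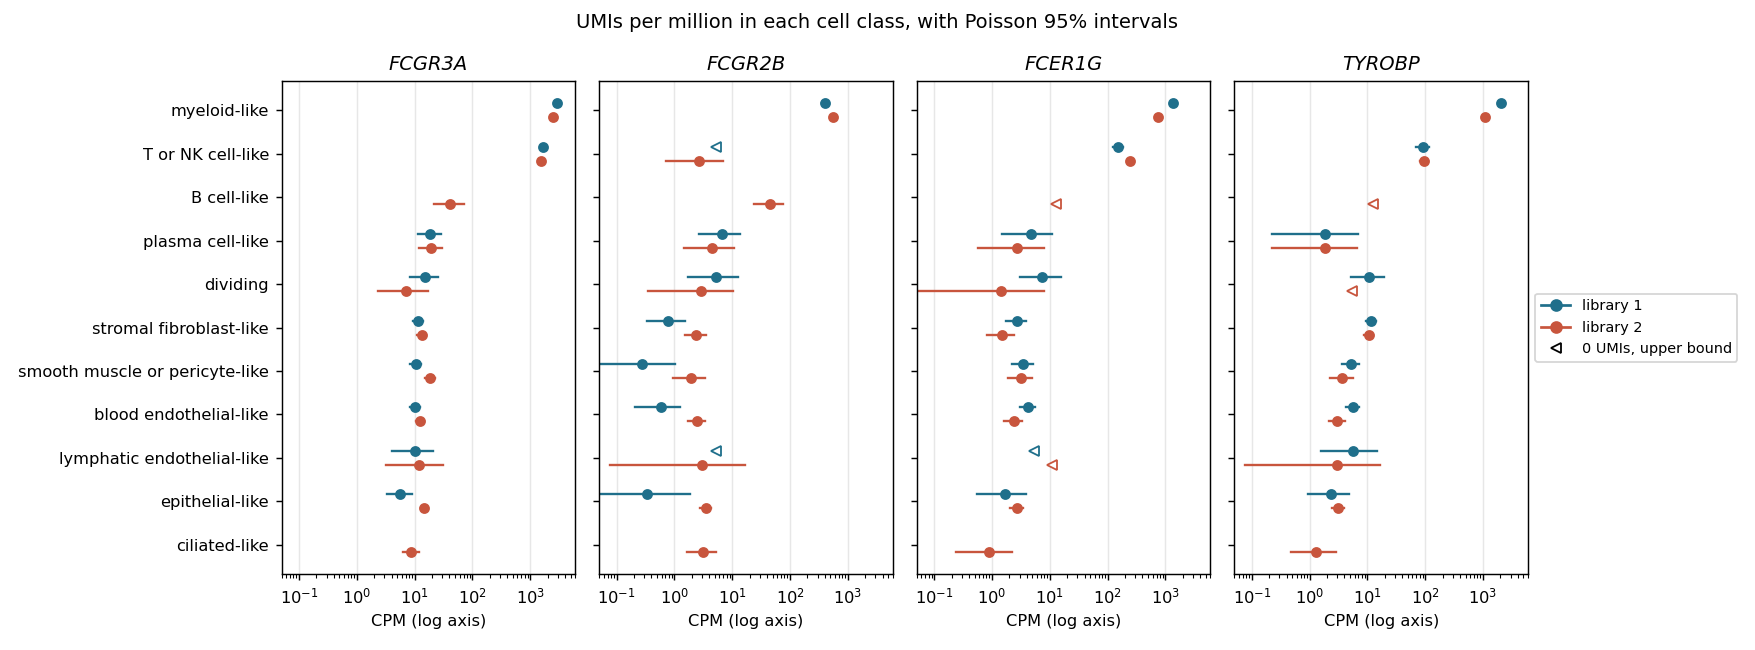
Level of each gene in CPM on a log axis, by cell class (rows) and library (colour), for classes of at least 50 cells. Points are levels from summed UMIs, lines are Poisson 95% intervals, and open triangles mark 0 UMIs at the upper bound. FCGR3A is at or above 1559 CPM in both myeloid-like and T or NK cell-like cells, whereas FCGR2B is at 2.65 CPM or listed at 0 in the latter.

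Droplets carry free RNA, so low counts were read beside those of non-immune classes. In stromal, muscle, blood endothelial and epithelial cells the 4 genes stood between 0.0701% and 0.954% of their myeloid level, the upper end being TYROBP in the stromal class of library 2. The macrophage genes C1QA and C1QB, subunits of complement C1q, stood between 0.0763% and 0.606% in the same classes. AIF1, a further macrophage gene, stood between 0.236% and 0.468% in 3 of them and at 2.90% and 2.49% in the muscle or pericyte-like class. A UMI of FCGR3A was found in 2.30% of blood endothelial-like cells of library 1 (median 3026 UMIs per cell) and 4.38% in library 2 (median 4308). The shares in T or NK cell-like cells were 67.2% (62.8 to 71.4%, Clopper-Pearson 95%) and 76.4% (73.3 to 79.2%), at shallower medians of 1319 and 1667 UMIs. At 1000 UMIs per cell, which left out 101 and 79 shallower lymphocytes, these were 58.7% and 68.6%, against 0.727% and 0.950% in the endothelium. The lymphocyte share of FCGR3A was thus far above the endothelial share at matched depth.

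The lymphocytes were divided further, again without the 4 genes, and each subcluster is called by its leading genes. FCGR3A was high in 6 of the 8 subclusters, which included those led by T cell genes. The adaptors were not: they were high in 3 subclusters, led by NCR1 (an activating NK cell receptor) or by CX3CR1 and S1PR5 (receptors of circulating cytotoxic lymphocytes). FCGR3A therefore occurred beside high adaptor levels in some subclusters and beside much lower ones in others.

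In library 2, subcluster 5 (230 cells, led by NCR1, SYK and KLRB1) had 1370 CPM of FCGR3A (1269 to 1477), 607 CPM of FCER1G (541 to 679) and 248 CPM of TYROBP (206 to 295). FCER1G had a UMI in 73.0% of these cells and TYROBP in 39.1%. This subcluster was 27.6% of the lymphocytes of library 2 and held 81.3% of their FCER1G UMIs and 85.5% of their TYROBP UMIs, but 29.2% of their FCGR3A UMIs. Subcluster 8 (54 cells, led by ADGRG1, LY6D, S1PR5 and CX3CR1) had 1534 CPM of FCGR3A, with a UMI in 92.6% of cells, 448 CPM of FCER1G and 168 CPM of TYROBP.

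The other large groups of library 2 had the receptor and hardly any adaptor. Subcluster 6 (251 cells, with CD40LG, LEF1 and ICOS, genes of helper T cells, among those leading it) had 1508 CPM of FCGR3A (1391 to 1631), with a UMI in 75.7% of cells. It had 7.30 CPM of FCER1G (3 UMIs) and 2.43 CPM of TYROBP (1 UMI), at the level of the non-immune classes. Subcluster 7 (267 cells, led by gzmK, a granzyme gene, with CD8A) had the highest FCGR3A level of the lymphocytes of library 2, 2022 CPM (1891 to 2160). Its FCER1G level was 32.1 CPM (14 UMIs) and its TYROBP level 11.5 CPM (5 UMIs). CD3D, a T cell receptor subunit, stood at 326 CPM in subcluster 6, 366 CPM in subcluster 7 and 186 CPM in subcluster 5.

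Library 1 showed a weaker division. Subcluster 1 (344 cells, led by gzmK, CD40LG and CXCR3) had 2122 CPM of FCGR3A (1990 to 2261), 106 CPM of FCER1G and 44.0 CPM of TYROBP. Subcluster 4 (67 cells, led by LY6D, CX3CR1 and S1PR5) had 1474 CPM, 485 CPM and 364 CPM, in the same order. Subcluster 4 was 14.1% of the lymphocytes of library 1 and held 49.1% of their FCER1G UMIs and 61.9% of their TYROBP UMIs. Subcluster 1 was 72.3% of these lymphocytes and held 45.3% and 31.7% of the adaptor UMIs, so it was not without them, and its FCER1G level lay far above the 4.14 CPM of blood endothelial-like cells of library 1. Its FCER1G UMIs lay in 9.30% of its cells and its TYROBP UMIs in 3.78%. An FCGR3A UMI was found in 37.5% of its cells with FCER1G and 53.8% of those with TYROBP, against 75.3% of all its cells. FCGR3A was low in 2 small groups. The group led by RHEX stood at 141 CPM (37 cells of library 1) and 116 CPM (20 cells of library 2), with 0 UMIs of both adaptors. The group led by FCER1A, the ligand-binding chain of the IgE receptor, with IL1RL1 and PTGDR2 (28 cells of library 1), had 122 CPM of FCGR3A, 91.5 CPM of FCER1G (6 UMIs) and 61.0 CPM of TYROBP (4 UMIs).

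**Figure D2:**
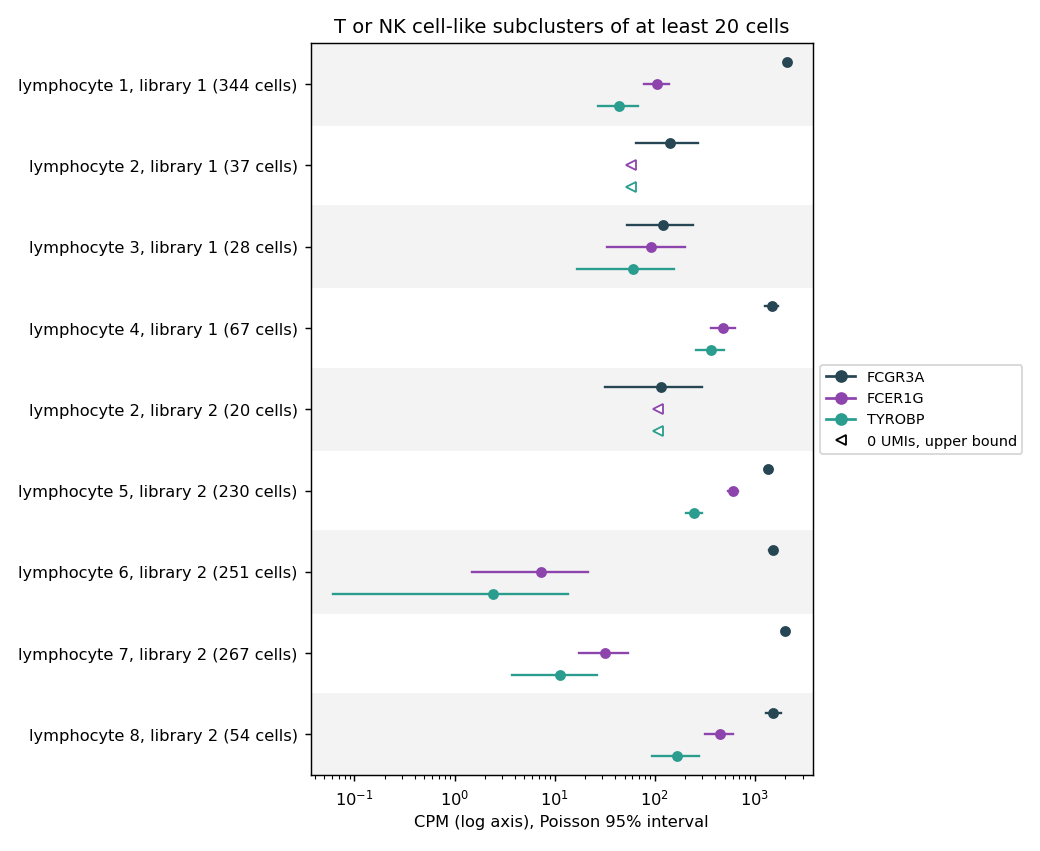
FCGR3A, FCER1G and TYROBP in the T or NK cell-like subclusters of at least 20 cells, in CPM on a log axis, with Poisson 95% intervals and open triangles for 0 UMIs at the upper bound. FCGR3A ranges from 1370 CPM in subcluster 5 to 2122 CPM in subcluster 1 among subclusters 1 and 4 to 8, while FCER1G spans 7.30 CPM in subcluster 6 to 607 CPM in subcluster 5.

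Counted cell by cell, 190 cells of subcluster 6 had an FCGR3A UMI, and 98.4% of them had a UMI of neither FCER1G nor TYROBP (95.5 to 99.7%). In subcluster 7 this share was 96.6% (93.2 to 98.6%) and in subcluster 1 it was 94.98% (91.6 to 97.3%). In subcluster 5 it was 13.3% (8.68 to 19.1%). Myeloid-like cells had 3.13% in library 1 and 7.76% in library 2. Depth moved the last 3 values: at 1000 UMIs per cell they were 39.3%, 6.47% and 22.8%, whereas subclusters 6, 7 and 1 had 100%, 96.8% and 94.4%. The contrast between the groups was kept at matched depth. Among all cells at full depth, with or without FCGR3A, neither adaptor was found in 98.4% (subcluster 6), 95.1% (7), 90.1% (1) and 17.8% (5). In myeloid-like cells this was 5.56% in library 1 and 12.7% in library 2. The shares among FCGR3A cells thus largely restate how often the adaptors were detected in each group.

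Macrophage genes were near 0 in these lymphocytes. Subcluster 6 held 3 UMIs of C1QA, 4 of C1QB and 2 of AIF1 over 251 cells. In its 242 cells without any of these, a subset chosen after seeing the data, FCGR3A stood at 1501 CPM. In the corresponding 338 cells of subcluster 1 it stood at 2134 CPM, and in 257 cells of subcluster 7 at 2023 CPM. FCER1G in subcluster 5 likewise stood at 612 CPM in 218 such cells. Reads of another Fc receptor gene counted under the FCGR3A symbol could not be checked, since the annotation used for counting was not given in the sources used here.

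CD247, the zeta chain, is a further known partner of FCGR3A in human NK cells. It stood at 336 CPM in subcluster 6, 344 CPM in subcluster 7 and 266 CPM in both subclusters 1 and 5. Of the cells with an FCGR3A UMI, 45.8% in subcluster 6 had a CD247 UMI. Both occurred together in 34.7% of cells of subcluster 6 against a product of the separate shares of 32.6%, but this order was turned in subcluster 7 (31.8% against 32.4%), subcluster 1 (18.0% against 20.1%) and subcluster 4 (13.4% against 17.0%). CD247 was not restricted to lymphocytes: its levels in epithelial-like cells were 113 and 379 CPM. HCST (DAP10), the adaptor gene beside TYROBP in Sscrofa11.1, stood at 112 CPM in subcluster 6 and 310 CPM in subcluster 5.

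Within the myeloid-like class, FCGR3A and FCGR2B varied more between subclusters than the adaptors did. Among subclusters of at least 20 cells, the highest FCGR3A level of each library was in a C1q-rich one. A group led by TOX, GNA14 and XCR1, the last a receptor of cross-presenting dendritic cells, had TYROBP near the level of the class and little FCGR3A.

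In library 1, the C1q-rich subcluster 1 (125 cells) had 3531 CPM of FCGR3A, 467 CPM of FCGR2B, 1313 CPM of FCER1G and 1960 CPM of TYROBP. Subcluster 2 (55 cells, led by AREG and S100A4, with XCR1 and cell cycle genes) had 2082, 296, 1339 and 2086 CPM. The adaptors thus stood within counting error of each other in the 2 groups, whereas the receptor intervals did not meet: 3346 to 3725 against 1910 to 2265 CPM for FCGR3A and 401 to 541 against 234 to 370 CPM for FCGR2B.

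In library 2, subcluster 3 (174 cells, led by C4BPA and MRC1, with C1QA) had 3928 CPM of FCGR3A (3761 to 4099) and 802 CPM of FCGR2B (728 to 882). Its FCER1G and TYROBP levels were 641 and 927 CPM. Subcluster 5 (169 cells, led by CD1.1, FAM110A and TIMP1) had 3003 CPM of FCGR3A, 769 CPM of FCGR2B, 985 CPM of FCER1G and 1403 CPM of TYROBP, and FCGR2B had a UMI in 80.5% of its cells. C1QA stood at 3629 CPM in subcluster 3 and 191 CPM in subcluster 5. So high FCGR2B was found in a C1q-rich and a C1q-poor group of this library. Subcluster 6 (42 cells, led by C3 and RNF128, with CCL8) was C1q-rich as well, at 2184 CPM of C1QA, but had 117 CPM of FCGR2B (68.0 to 187) and 1524 CPM of FCGR3A. Subcluster 6 also had the highest FCGR1A level, 316 CPM, FCGR1A being the high-affinity IgG receptor.

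Subcluster 9 (47 cells, led by TOX, GNA14 and XCR1) had 142 CPM of FCGR3A (100 to 194) and 194 CPM of FCGR2B, beside 447 CPM of FCER1G and 984 CPM of TYROBP. Subcluster 7 (21 cells) had 344 CPM of FCGR3A and 177 CPM of FCGR2B, beside 1023 and 1488 CPM of the adaptors. Both had almost no C1q: 3 C1QA UMIs in subcluster 9 and 0 in subcluster 7. Subcluster 8 (11 cells, rich in LAMP3, a gene of mature dendritic cells) had 0 UMIs of both receptors, 1 of FCER1G and 17 of TYROBP. Subcluster 4 (30 cells) had the endothelial genes CLDN5 and ERG among its leading genes, beside 1694 CPM of FCGR3A, and what these add to its values was not tested. Most subclusters were of 1 library, so a subcluster may be that library rather than a kind of cell.

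**Figure D3:**
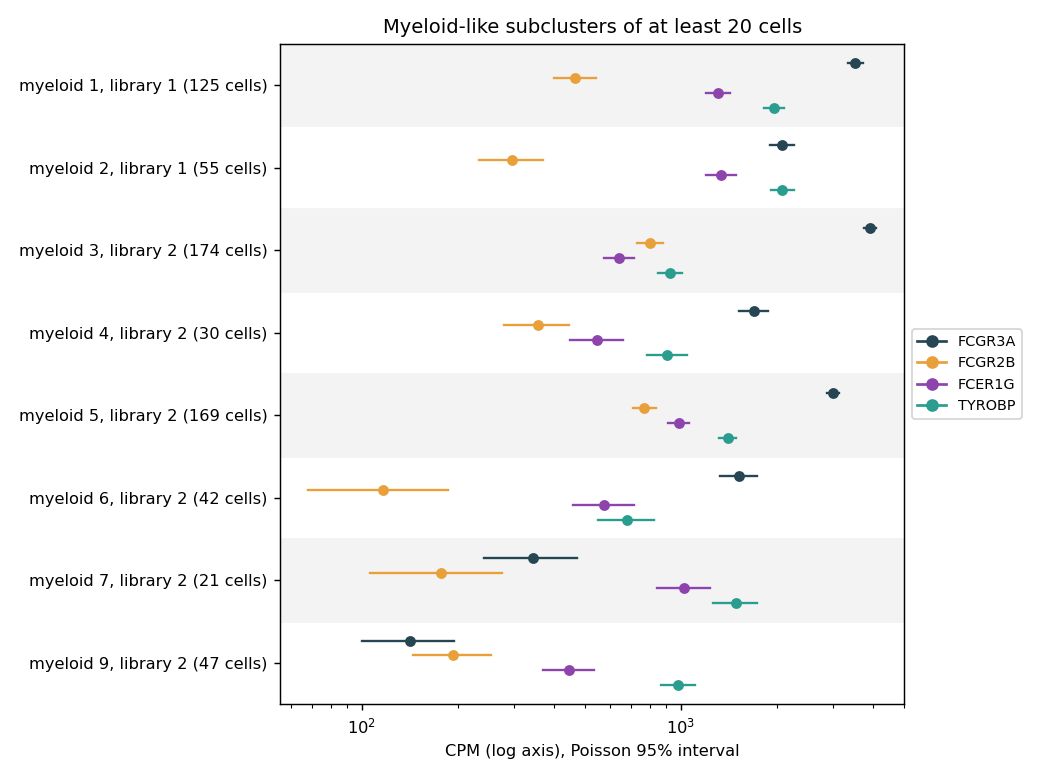
The 4 genes in the myeloid-like subclusters of at least 20 cells, in CPM on a log axis, with Poisson 95% intervals. FCGR3A spans 142 CPM in subcluster 9 to 3928 CPM in subcluster 3, while TYROBP spans 680 CPM in subcluster 6 to 2086 CPM in subcluster 2.

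Most myeloid-like cells carried several of the genes at once. All 4 had a UMI in 79 of 180 cells of library 1 (43.9%) and 261 of 520 cells of library 2 (50.2%), and none had one in 2.78% and 5.38%. The median myeloid-like cell held 8 FCGR3A UMIs in library 1 and 5 in library 2, and the highest held 88 and 65. Of the cells with FCGR2B, the inhibitory receptor, 94.4% and 90.7% also had FCGR3A, the activating one. The 2 occurred together in 47.2% and 58.1% of cells, against products of the separate shares of 44.4% and 52.3%. FCER1G and TYROBP occurred together in 85.6% and 70.8%, against products of 81.0% and 62.5%. At 1000 UMIs these last were 63.1% against 61.3% in library 1 and 30.5% against 27.3% in library 2. Joint detection did not exceed the product for every pair at that depth: in library 1, FCGR3A with FCER1G had 63.1% against 63.2%, and FCGR3A with TYROBP 75.2% against 76.1%.

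Between the libraries, the myeloid-like class had lower adaptor levels and a higher FCGR2B level in library 2. FCER1G went from 1324 to 733 CPM, a log2 ratio of library 2 over library 1 of -0.85 (-0.97 to -0.73). TYROBP went from 2011 to 1098 CPM, a log2 ratio of -0.87 (-0.97 to -0.77). FCGR3A had a smaller ratio of -0.27 (-0.35 to -0.19) and FCGR2B one of 0.49 (0.30 to 0.69). None of the 4 passed 2-fold. Over the 11346 genes with at least 10 UMIs in the class, 19.4% were higher and 15.5% lower in library 2 by at least 2-fold, and the median log2 ratio was -0.04. The 2 adaptors were lower by at least 1.5-fold, as were 28.1% of all genes.

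Several values moved with these ratios. The macrophage genes had ratios of -0.82 (C1QA), -1.14 (C1QB) and -0.68 (AIF1), and the leukocyte gene PTPRC had 0.12. The summed level of 9 stromal markers in the myeloid-like cells was 2509 CPM in library 1 and 980 CPM in library 2, that of 9 epithelial markers 32.7 and 287 CPM. Their part in the ratios was not tested. Scaling by trimmed means (TMM) shifts every myeloid ratio by 0.19, which takes FCGR3A to -0.079. With cells thinned to 1000 UMIs, FCGR2B had 0.11 (-0.25 to 0.49), so no difference was detectable there. Thinning also drops UMIs and gives each cell equal weight, so the part of depth in this was not tested. A UMI of FCGR2B was found in 90 of 180 cells and in 64.0% of cells at full depth, and in 33.1% and 36.9% when thinned. The adaptors kept their direction: thinned FCER1G shares were 71.3% and 47.8%, and thinned TYROBP shares 86.0% and 57.1%. FCER1G had the same order between 2 C1q-rich subclusters, at 1313 CPM in subcluster 1 of library 1 and 641 CPM in subcluster 3 of library 2. The receptors had no single order between C1q-rich subclusters. Against subcluster 1 of library 1, FCGR2B and FCGR3A were both higher in subcluster 3 of library 2. Both were lower in subcluster 6 of library 2, which is C1q-rich too.

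In T or NK cell-like cells, the FCGR3A ratio lay near 0 and the FCER1G level was higher in library 2. FCGR3A had a log2 ratio of -0.08 (-0.18 to 0.02), TYROBP one of 0.08 (-0.36 to 0.53) and FCER1G one of 0.69 (0.38 to 1.02). FCGR2B had fewer than 10 UMIs and got no ratio. None of the 3 passed 2-fold, against 22.9% of 10578 genes higher and 10.9% lower in library 2. FCER1G was higher by over 1.5-fold, as were 35.2% of all genes. The class lay in cluster 7 in library 1 and mainly in clusters 24 and 25 in library 2. Subcluster 5, led by NCR1 and found in library 2 only, held most adaptor UMIs of the lymphocytes of that library. The libraries were clustered without correction between them, so such a subcluster may be that library rather than a kind of cell. In the remaining lymphocytes of library 2 FCER1G stood at 69.5 CPM, TYROBP at 20.8 CPM and FCGR3A at 1654 CPM. Ratios of these levels to library 1 are not like for like, since the adaptor-rich subcluster 4 stays in there. They are given only among the processing alternatives.

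**Figure D4:**
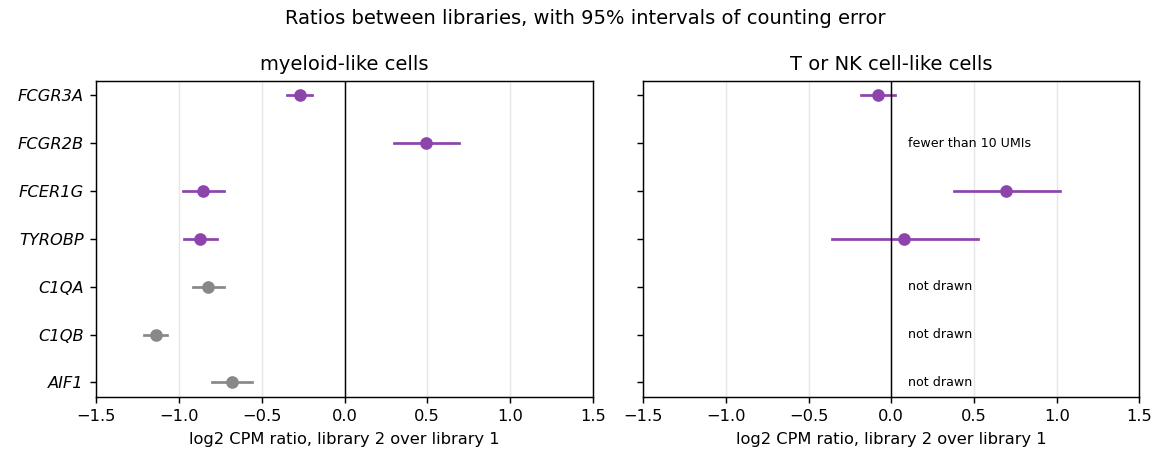
Log2 CPM ratio of library 2 over library 1 in myeloid-like cells (left) and T or NK cell-like cells (right), with 95% intervals of counting error. Purple marks the 4 genes and grey 3 macrophage genes for comparison, drawn in the myeloid-like class only. FCER1G lies at -0.85 on the left and 0.69 on the right.

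TYROBP had a further, low level that differed between clusters of the class named stromal fibroblast-like. This class fell into 2 clusters in each library, and in each the UMIs of TYROBP lay mostly in 1 of them. In library 1, cluster 1 (1249 cells, led by CRABP1 and COL23A1) had 84 UMIs, 15.4 CPM and a UMI in 5.04% of cells, and cluster 0 (1077 cells, led by ANPEP and C3) had 34 UMIs, 7.25 CPM and 3.06%. In library 2, cluster 22 (1142 cells, led by NRG1 and CNTNAP2) had 84 UMIs, 16.0 CPM and 5.78%, and cluster 23 (1024 cells, led by RORB and C3) had 22 UMIs, 4.52 CPM and 1.86%. The ratio between the 2 clusters was 2.12 in library 1 (1.41 to 3.26) and 3.55 in library 2 (2.20 to 5.97). Median depths were 4472 and 4254 UMIs per cell in library 1 and 4488 and 4486 in library 2.

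FCER1G counts did not follow this order. FCER1G had 8 UMIs in cluster 1 against 19 in cluster 0, and 8 in cluster 22 against 7 in cluster 23. The ratio of FCGR3A was 0.773 (0.527 to 1.13) in library 1 and 1.297 (0.908 to 1.86) in library 2, and that of C1QB 1.495 (0.994 to 2.28) and 1.03 (0.650 to 1.63). C1QA had the order of TYROBP in library 1, at 7.69 CPM in cluster 1 (42 UMIs) and 4.48 CPM in cluster 0 (21 UMIs). In library 2 it stood at 6.31 CPM in cluster 22 (33 UMIs) and 5.13 CPM in cluster 23 (25 UMIs). In barcodes without a UMI of C1QA, C1QB, AIF1 or PTPRC, a subset chosen after seeing the data, the TYROBP ratio was 2.45 (1.53 to 4.03) and 3.76 (2.25 to 6.58). The number of TYROBP UMIs per FCER1G UMI was 1.52 in myeloid-like cells of library 1 and 1.499 in library 2. In the stromal class it was 4.37 (2.86 to 6.91) and 7.07 (4.10 to 13.1), while blood endothelial-like cells had 1.35 (0.894 to 2.05) and 1.27 (0.788 to 2.07). HCST had ratios between the clusters of 1.14 (0.740 to 1.78) and 1.14 (0.583 to 2.25). The comparison is by cluster number, since cluster 1 had a mesothelial marker and no stromal marker among its 10 leading genes, so its stromal name is uncertain. At 1000 UMIs per cell a TYROBP UMI was left in 1.57% of cells of cluster 1 and 1.51% of cluster 22.

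**Figure D5:**
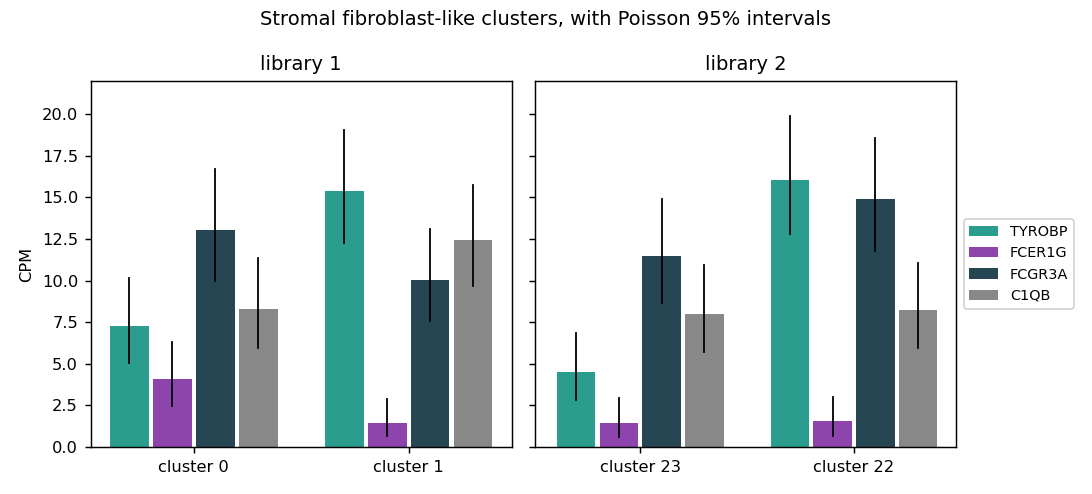
CPM of TYROBP, FCER1G, FCGR3A and C1QB in the stromal fibroblast-like clusters of each library, as bars from 0 with Poisson 95% intervals. TYROBP reaches 15.4 CPM in cluster 1 and 16.0 CPM in cluster 22, against 7.25 and 4.52 CPM in the other cluster of the same library.

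The genes most like each of the 4 were taken over the classes. Likeness was Pearson's r of log2(CPM + 10) over 18 units (named class and library, at least 50 cells) among 3953 genes, and the units share libraries, so it is a description. For FCGR3A they were SH3BP1 (r = 0.98), FCER1G (0.97), DOK2, a docking protein of tyrosine kinases (0.97), GNA15 (0.96) and MYO1F, a leukocyte myosin (0.96). For FCGR2B they were CASP1, the inflammasome protease (0.99), TFEC (0.99), SPI1, a myeloid transcription factor (0.97), TLR2 (0.96) and UNC93B1 (0.96). FCER1G had TYROBP (0.97), FCGR3A (0.97), ITGAM, the integrin chain CD11b (0.97), SH3BP1 (0.95) and DOK2 (0.94). TYROBP had ITGAM (0.98), FCER1G (0.97), EMR4 (0.96), NLRP3, an inflammasome sensor (0.95), and RGS10 (0.94). Among the 4 genes r was lowest between FCGR2B and FCGR3A (0.67) and highest between FCER1G and TYROBP (0.97). With a pseudocount of 1 CPM, 2 of the 5 genes named for FCGR3A and 3 of those for FCGR2B stayed among the top 5.

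The surrounding pathway was read from lists of Fc receptors, adaptors, partner receptors, signal enzymes, inhibitors and effector genes, of which 70 genes had a symbol beside the 4 members. In myeloid-like cells 54 of them had at least 10 UMIs. Of these, 16 were higher and 6 lower by at least 2-fold in library 2, with a median log2 ratio of 0.19. Over all genes of the class 19.4% were higher and 15.5% lower, with a median of -0.04. With a minimum of 50 UMIs 9 were higher, and 15 were lower with a minimum of 1 UMI. Since counts under 3 were set to 3, genes of at most 3 UMIs in each library then got a fixed ratio of -1.72. Such genes counted as lower whatever their UMIs, so the 15 does not measure genes lower in library 2. In T or NK cell-like cells 20 of 51 were higher and 5 lower, with a median of 0.69, against 22.9% and 10.9% of all genes and a median of 0.15. Those lower numbered 12 at 1 UMI and 3 at 50 UMIs. At 1 UMI the fixed ratio in this class was -1.13, so the 12 has the same limit. The shares of all genes are those at the 10 UMI minimum. The counts of the single lists below are small and are read against these same shares.

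Among the other Fc receptors, 2 of 5 were higher and 1 of 5 lower in myeloid-like cells, against 19.4% and 15.5% of all genes. The 2 higher, FCER1A and FCRL1, had only 1 UMI each in library 1. FCGR1A went from 131 to 60.9 CPM (log2 ratio -1.10). FCGRT, the neonatal Fc receptor that recycles IgG, went from 101 to 77.4 CPM in myeloid-like cells, and stood at 132 and 95.5 CPM in lymphatic endothelial-like cells. FCER1A went from 55.0 to 1.99 CPM in T or NK cell-like cells (log2 ratio -4.79), 31 of its 38 UMIs in library 1 lying in subcluster 3. FCER2, the low-affinity IgE receptor, had 58.3 CPM in B cell-like cells of library 2. Of the other adaptors, 0 of 3 in myeloid-like cells and 0 of 5 in lymphocytes passed 2-fold. HCST went from 347 to 199 CPM in lymphocytes (-0.80).

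The next list held receptors taken as partners of TYROBP, HCST or FCER1G. It was broad, and genes in it such as CLEC7A, KLRB1 and CD226 are not known to depend on these adaptors. Of this list, 3 of 9 were higher and 0 lower in myeloid-like cells, where 19.4% and 15.5% of all genes were. The 3 were KLRK1, CLEC4E and CD300LB, which had only 0, 2 and 3 UMIs in library 1. TREM2, a lipid receptor that signals through TYROBP, went from 52.9 to 28.3 CPM (-0.90), and CLEC7A, the beta-glucan receptor, from 51.3 to 98.7 CPM (0.94). In lymphocytes 4 of 7 were higher and 1 lower, beside 22.9% and 10.9% of all genes. NCR1, which signals through FCER1G and CD247, went from 47.8 to 318 CPM (2.73), and the NK cell receptors KLRK1 and KLRD1 had ratios of 1.32 and 1.96. NCR1 stood at 897 CPM in subcluster 5, 0 UMIs in subcluster 6 and 16.0 CPM in subcluster 7. SYK, the kinase recruited by both adaptors, followed the same split, at 365 CPM in subcluster 5, 4.86 CPM in subcluster 6 and 6.87 CPM in subcluster 7. ZAP70, its T cell relative, stood at 41.9, 163 and 229 CPM. These groups were cut by such genes, so their levels describe the subclusters.

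Of the activating enzymes and scaffolds, 9 of 22 were higher and 2 lower in myeloid-like cells, and 7 of 17 were higher and 1 lower in lymphocytes. All genes had 19.4% and 15.5% in the former and 22.9% and 10.9% in the latter. VAV3, an exchange factor, went from 65.3 to 570 CPM in myeloid-like cells (3.12), GAB2, a scaffold, from 29.6 to 219 CPM (2.89), and the kinase PRKCD from 157 to 67.5 CPM (-1.22). In lymphocytes SYK went from 14.5 to 141 CPM (3.29) and SOS1 from 50.7 to 302 CPM (2.58). This list was not higher in leukocytes alone: its median ratio was 0.59 in myeloid-like cells, 0.91 in lymphocytes, 1.31 in blood endothelial-like and 1.95 in muscle-like cells. Among the inhibitors, 2 of 12 were higher and 2 lower in myeloid-like cells, near the shares of all genes. INPP5D, the phosphatase recruited by FCGR2B, went from 162 to 312 CPM (0.95), and PTPN6 from 263 to 150 CPM (-0.81). In lymphocytes 6 of 12 were higher, where 22.9% of all genes were, led by PAG1 (2.99) and UBASH3B (2.99). Of the effector genes in lymphocytes, 2 of 8 were higher, gzmK (2.14) and PRF1, perforin (1.37), and 2 were lower, IFNG (-1.54) and XCL1 (-1.24), so the share higher was near that of all genes.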

How the data were processed

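Values are raw UMI counts in the deposited matrices, made with Cell Ranger 6.1.0 per the file headers and 2.1.1 per the submitters' processing notes. No source used here gives the build or the intron setting. Symbols are the deposited ones, and 16128 genes had none. A barcode needed 500 UMIs and 200 genes, and doublets called with Scrublet in scanpy 1.11.5 were removed: 1110 (11.1%) and 2419 (16.0%). Both libraries were clustered together without the 4 members (2000 variable genes, 30 components, 15 neighbours, Leiden resolution 1.0, igraph 0.11.9), and the myeloid-like and T or NK cell-like classes again with 20 components at resolution 0.5. Of 28 clusters, 26 were named from marker lists.

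The authors' counts were summed per class and library and given as CPM. Ratios used the 10 UMI minimum and counts under 3 set to 3, and the interval step was tested on simulated data. Named genes were the members, the 5 most similar genes of each, and the 3 highest and 3 lowest ratios of each pathway list among genes of at least 50 CPM in a class; other genes are checks, cluster leaders or were chosen after their values were seen. Members and lists were chosen with earlier results of these data known. TMM came from edgeR 4.0.16.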

Additional observations from a re-analysis of the deposited data

Results flagged for a closer look

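FCER1G differed in direction between 2 classes: its log2 ratio (library 2 over 1) stood at -0.85 in myeloid-like cells and 0.69 in T or NK cell-like cells. Each class had 1 library per side, so the difference between them was not tested. In the lymphocytes of library 2, 81.3% of the FCER1G UMIs lay in the NCR1-led subcluster, in which no library 1 cell fell. The libraries were clustered without correction between them, so this does not show that library 1 lacked such cells. Its lymphocytes held 47.8 CPM of NCR1 (33 UMIs).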

How the results depend on the processing

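Alternatives were TMM scaling, equal weight per cell, cells thinned to 1000 UMIs, doublets kept, a filter of 1000 UMIs and 500 genes, resolutions 0.5 and 2.0, separate clustering and members allowed among the clustering genes. In myeloid-like cells FCER1G had log2 ratios of -0.66 (TMM) and -1.01 (equal weight), and TYROBP -0.68 (TMM), -1.15 (thinned) and -0.98 (equal weight). FCGR2B had 0.11 thinned, and FCGR3A -0.079 with TMM and -0.19 with the stricter filter. In T or NK cell-like cells FCGR3A had -0.19 with doublets kept, 0.037 with the stricter filter and -0.23 at equal weight, TYROBP -0.63 thinned. Without the NCR1-led subcluster, FCER1G had -1.14 and TYROBP -2.13. That choice, made after seeing the data, takes adaptor-rich cells from library 2 only and so fixes a lower value. With doublets kept, FCGR3A in lymphocytes stood at 999.9 and 877 CPM in place of 1649 and 1559. Pathway genes higher in myeloid-like cells numbered 9 at a minimum of 50 UMIs, and those lower 10 at 1.5-fold and 15 at a minimum of 1 UMI. In lymphocytes those lower numbered 12 at 1 UMI and 3 at 50 UMIs. The numbers lower at 1 UMI include genes of at most 3 UMIs in each library. Their ratio is fixed by setting counts under 3 to 3. The causes of the other moves were not tested. The other 61 alternative values of the ratios and pathway counts moved less than their interval or 1.5 times. Of the alternative values of further results, 46 over 27 results were classed as moved and 168 as unchanged. No paired analysis was possible because each group held 1 library. Depth limits FCGR2B in lymphocytes and all 4 genes in B cells and lymphatic endothelium, where counts were under 15 UMIs.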
